A study of Mus musculus with 27 samples.

Results

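The genes for 7 matrix metalloproteinases (Mmp2, Mmp3, Mmp9, Mmp11, Mmp12, Mmp13 and Mmp14) and 3 tissue inhibitors of metalloproteinases (Timp1, Timp2 and Timp3) were followed while mouse embryonic fibroblasts (MEFs) were being reprogrammed to induced neurons. They were chosen by gene name, as 10 of the 54532 genes in the table of gene levels, and each matched 1 row. The levels were FPKM values, that is, fragment counts scaled to exon length and library depth. They came from bulk RNA sequencing of 27 libraries in 9 groups of 3 biological replicates. Each of 3 genotypes (WT, Per1-/-, Per2-/-) was sampled on days 0, 2 and 4.

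All groups carried the BAM genes, a set of neurogenic transcription factors, delivered by lentivirus under a promoter that doxycycline switches on. WT, Per1-/- and Per2-/- MEFs came from mid-gestation embryos of the lines B6.129-Per1tm1Drw/J and B6.129-Per2tm1Drw/J and their WT relatives, with the cells of several embryos pooled in a dish. Whether the 3 replicates of a group came from separate pools is not given, and p-values then measure only the spread between these samples. Per1 and Per2 encode repressors of the circadian clock. Day 0 was the day on which fibroblast medium with serum was replaced by serum-free neuronal medium with doxycycline, so the time in culture, the new medium and the BAM genes changed together and cannot be told apart here. No group lacked the BAM genes or kept the serum. MEF cultures also hold macrophages, which are a natural source of several metalloproteinases.

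Metalloproteinases are zinc enzymes that are secreted or anchored in the membrane as inactive proenzymes and that cut collagens, other matrix proteins and signalling molecules. TIMPs bind the active site of the enzymes and block it. In fibroblasts, MMP14 on the cell surface activates MMP2 in a complex that contains TIMP2, while the genes for MMP3, MMP9, MMP13 and TIMP1 are known targets of growth factors and cytokines acting through AP-1. A transcript level does not give the amount of active enzyme.

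Library depth ranged from 15815013 to 24264097 fragments. The study's methods describe nondirectional libraries, so fragments could not be assigned by strand, and 5 members overlap another gene. Of their exon bases, 1733 of the 8144 of Timp3 are shared with Syn3, 155 of the 2778 of Mmp11 with Chchd10 and 157 of the 7237 of Mmp12 with Mmp1b, all on the opposite strand. Timp1 lies inside Syn1, and Cep295nl lies inside Timp2 on the same strand, both with 0 exon bases in common. The genotype labels were checked on the targeted genes. Per1 was at 5.44 to 6.33 FPKM in WT and 3.23 to 4.96 in Per1-/- cells on day 0 and was not called lower on any day (limma, log2 fold change -0.50, -0.19 and -0.21, adjusted p = 0.771, 0.999 and 0.933). Per2 was at 0.817 to 0.957 FPKM in WT on day 0 and at 1.87 to 2.00 in the libraries labelled Per2-/-, where it was called higher than in WT on day 0 (limma, log2 fold change 1.03, adjusted p = 0.00114) and on day 2 (0.82, adjusted p = 0.0191). A gene-level value also counts the parts of a gene that a targeted allele keeps, so these values do not check the loss of either protein. Per2-/- is used below as the label of those libraries.

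The labels call all samples induced neurons. Markers of other cell types were present at every time, and a bulk level cannot tell fewer cells of a type from less RNA per cell. The summed level of 12 fibroblast markers was 1570 to 2781 FPKM on day 0, then 2523 to 4087 by day 2 and 3666 to 5019 by day 4. The 16 neuron markers, 14 of them tested, summed to 49.1 to 109.5 FPKM on day 0 and 136 to 237 on day 4. The 22 macrophage markers summed to 148 to 1204 FPKM on day 0, then 195 to 1394 by day 2 and 503 to 2332 by day 4. Fibroblast markers therefore stood above neuron markers in all libraries, and of these 3 sums that of macrophage markers had the widest range relative to its lowest value.

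At the outset, inhibitors headed the family. On day 0, Timp2 (mean of 9 libraries, 518 FPKM) and Timp1 (318) were the most abundant, followed by Mmp14 (169), Mmp2 (102) and Timp3 (59.0). Mmp11 (15.6) and Mmp3 (13.4) were lower, and Mmp13 (2.37), Mmp9 (0.796) and Mmp12 (0.689) were the lowest. The libraries of Timp2 and Timp1 overlapped, as did those of Mmp14, Mmp2 and Timp3, of Mmp11 and Mmp3, and of the last 3 genes, whereas these 4 sets did not overlap with each other. By day 4 the order had become Timp2 (395), Mmp2 (201), Mmp14 (116), Timp3 (65.3), Timp1 (32.5), Mmp11 (18.6), Mmp9 (15.5), Mmp3 (8.12), Mmp12 (0.457) and Mmp13 (0.321). Mmp11, Mmp9 and Mmp3 overlapped in that order, and so did Mmp12 and Mmp13, while no other neighbours did. FPKM is a level per length of transcript, so levels can be set side by side between genes.

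**Figure D1:**
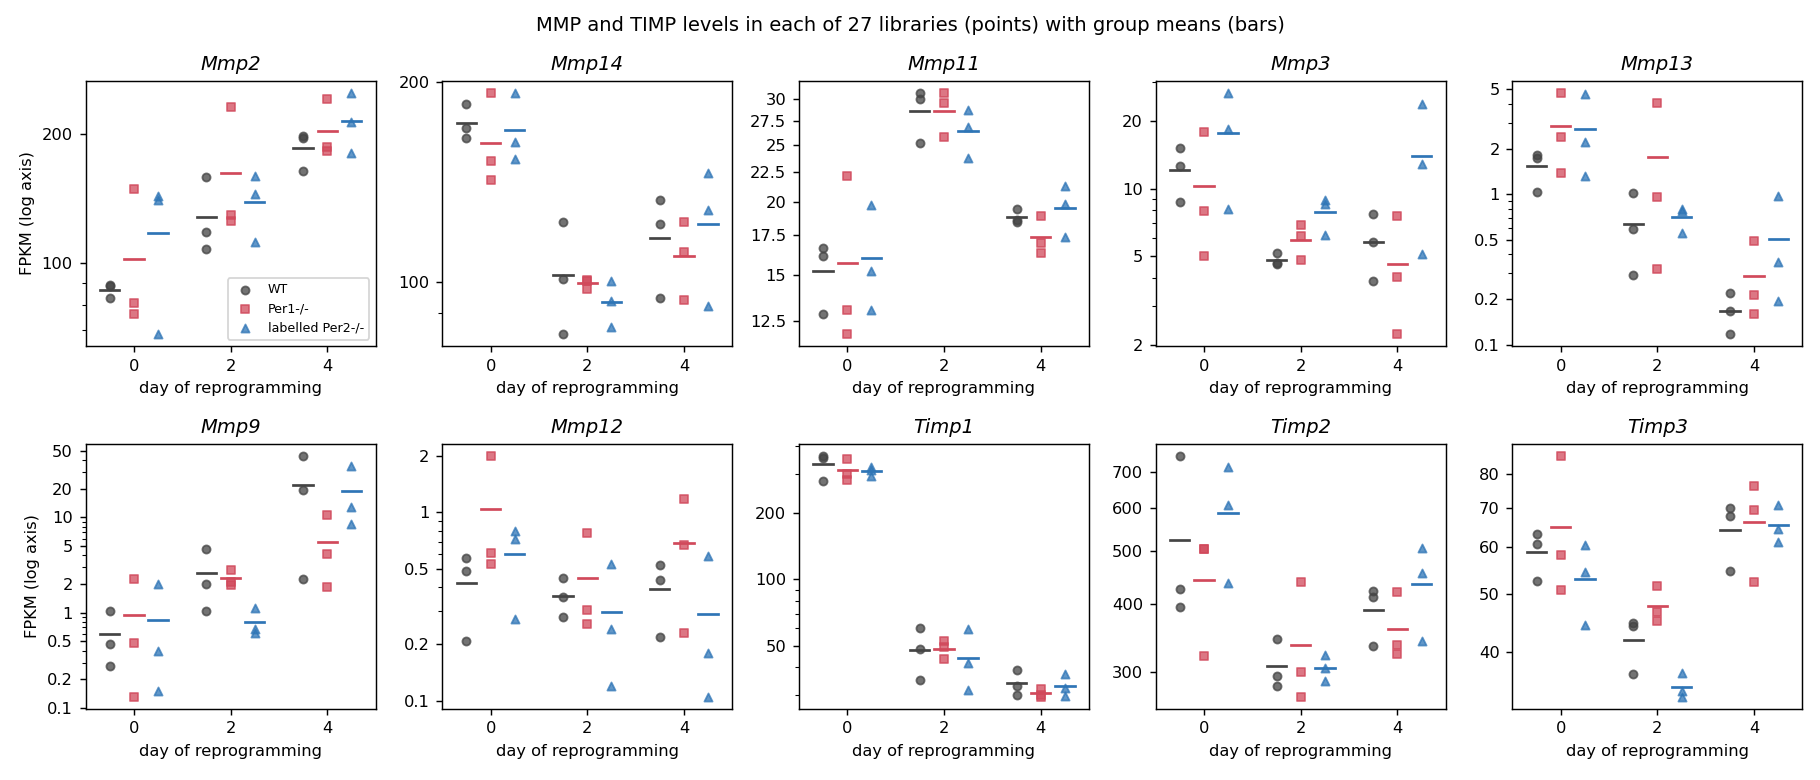
Levels of the 10 genes in FPKM on a log axis against day, 1 panel per gene. Points are the 27 libraries and bars the means of the 3 libraries of a genotype. Timp1 dropped between days 0 and 2 in all genotypes, Mmp2 and Mmp9 were highest on day 4, Mmp11 was highest on day 2, and Mmp13 was lowest on day 4.

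Between days 0 and 2, Mmp11 rose and Timp1 and Mmp14 fell in all 3 genotypes. Limma's test was run over the 14932 genes that averaged 0.5 FPKM or more, and a gene was called at a Benjamini-Hochberg adjusted p of 0.05 or less together with a log2 fold change of 0.58 or more in either direction. All 10 members passed this filter on low values, Mmp12 narrowly with a mean of 0.505 FPKM. From day 0 to day 2, 1 member was called higher and 4 lower in WT, 2 and 2 in Per1-/-, and 1 and 5 in Per2-/-. Of all genes tested, 20.8% were called higher and 19.7% lower in WT, 20.8% and 18.8% in Per1-/-, and 18.7% and 16.8% in Per2-/-. Calls in all genotypes at once took in 15.5% of genes higher and 13.5% lower. The 3 libraries of day 2 did not overlap with those of day 0 for 8 members in WT, 3 in Per1-/- and 6 in Per2-/-, as was the case for 67.2%, 60.5% and 61.5% of all genes.

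Between days 2 and 4 no member was called in all 3 genotypes. The counts were 1 higher and 0 lower in WT, 0 and 2 in Per1-/-, and 2 and 0 in Per2-/-, against 1.62% and 1.59%, 1.38% and 1.06%, and 2.32% and 1.74% of all genes (0.777% and 0.676% in all genotypes at once). Groups did not overlap for 4, 3 and 5 members, against 32.1%, 29.7% and 28.8% of genes. Over the whole span from day 0 to day 4, Mmp2 and Mmp9 rose and Timp1 and Mmp13 fell in all 3 genotypes. There were 2 members higher and 3 lower in WT, 2 and 2 in Per1-/-, and 2 and 2 in Per2-/-. The shares of all genes were 22.9% and 20.9%, 22.6% and 20.4%, and 21.6% and 18.8%, with 17.6% higher and 15.6% lower in all genotypes at once. Day 4 did not overlap with day 0 for 7, 4 and 6 members, against 68.6%, 62.6% and 63.8% of genes. The median log2 fold change of the members from day 0 to day 2 was -0.60 in WT, -0.50 in Per1-/- and -0.85 in Per2-/-, where the median of all genes was -0.01. From day 0 to day 4 it was -0.22 in WT, -0.40 in Per1-/- and -0.43 in Per2-/-, where the median of all genes lay between -0.02 and 0.00.

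**Figure D2:**
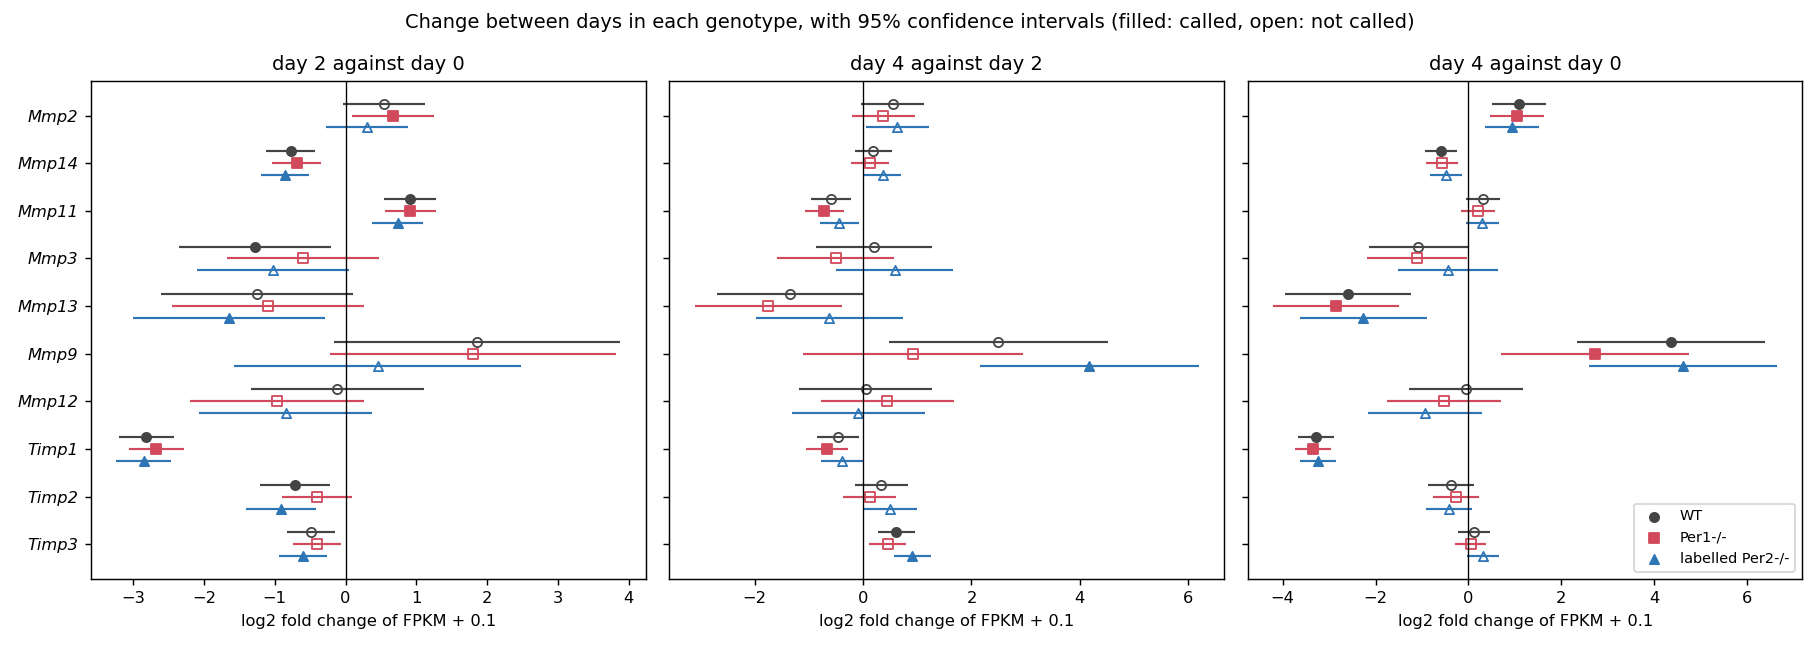
Log2 fold changes of the 10 genes with 95% confidence intervals between days, for WT, Per1-/- and Per2-/- cells, with filled points for changes that were called. Timp1 was the member with the steepest drop by day 2, and the wide intervals of Mmp9, Mmp12, Mmp13 and Mmp3 reflect their spread between libraries.

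Timp1, a secreted inhibitor that is induced by serum and cytokines in fibroblasts, showed the steepest fall of the 10 genes. The gene (ENSMUSG00000001131, GRCm38 chrX:20870166-20874735, plus strand) was at 355, 363 and 280.2 FPKM in the WT libraries on day 0, then 60.1, 48.6 and 35.1 on day 2 and finally 39.0, 33.1 and 29.9 on day 4. Per1-/- cells held 351, 300.4 and 283 FPKM on day 0, then 49.6, 43.6 and 52.6 on day 2 and finally 32.1, 29.9 and 29.5 on day 4. In the Per2-/- libraries the values were 313, 295 and 322 FPKM, then 59.5, 31.7 and 41.7, then 32.3, 29.5 and 37.3. Every day 0 library was thus far above every later one, and nearly all of the fall took place before day 2. The log2 fold change from day 0 to day 2 was -2.82 in WT (limma, SE 0.19, adjusted p = 1.33e-10), -2.68 in Per1-/- (adjusted p = 3.66e-10) and -2.85 in Per2-/- (adjusted p = 1.59e-10). By day 4 it had reached -3.28, -3.34 and -3.23. These calls held in every fit without 1 library. The further change from day 2 to day 4 was called only in Per1-/- (-0.67, limma adjusted p = 0.0469), a call that was lost in each of the 6 fits without 1 library. Its difference from the -0.47 in WT was not tested.

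Timp2, the inhibitor that also takes part in the activation of MMP2, remained the most abundant member on all 3 days. It lies at GRCm38 chr11:118301069-118355740 on the minus strand (ENSMUSG00000017466). WT levels were 426, 748 and 396 FPKM on day 0, then 295, 345 and 283 on day 2 and finally 412, 423 and 335 on day 4. The corresponding values were 505, 322 and 504, then 438, 270.4 and 300.5, then 421, 324 and 337 FPKM in Per1-/-, and 713, 438 and 608, then 289, 305 and 323, then 507, 342 and 457 in Per2-/-. Day 2 libraries did not overlap with day 0 ones in WT and Per2-/-, but they did in Per1-/-. Timp2 fell from day 0 to day 2 in WT (log2 fold change -0.71, SE 0.24, limma adjusted p = 0.0139) and Per2-/- (-0.91, adjusted p = 0.00262). The WT call rested on 1 library, since without replicate 2 of day 0 it was -0.42 (limma adjusted p = 0.126). With each library scaled to a common sum (TPM), neither was called, at -0.28 and -0.58. In Per1-/- the change was -0.40 and was not called. By day 4 none of the genotypes was called against day 0, at -0.37, -0.28 and -0.42.

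Timp3 is the inhibitor that binds to the matrix. It lies within the span of Syn3 on the other strand (ENSMUSG00000020044, GRCm38 chr10:86300372-86349506, plus strand), and Syn3 itself averaged 0.112 FPKM. WT libraries held 63.3, 60.9 and 52.7 FPKM on day 0, then 44.7, 44.3 and 36.7 on day 2 and finally 67.9, 70.0 and 54.7 on day 4. In Per1-/- the values were 85.8, 50.9 and 58.2, then 46.7, 45.0 and 51.5, then 52.5, 69.5 and 76.4 FPKM. The Per2-/- values were 60.7, 54.5 and 44.3, then 36.8, 33.5 and 34.2, then 70.8, 61.4 and 64.5 FPKM. The lowest level was thus on day 2, and the day 4 libraries did not overlap with those of day 2 in any genotype. Between days 2 and 4 Timp3 rose in WT (log2 fold change 0.61, SE 0.16, limma adjusted p = 0.0334) and in Per2-/- (0.91, adjusted p = 0.00277), and the Per1-/- change of 0.45 was not called. The dip before it was called only in Per2-/- (-0.60, limma adjusted p = 0.0037). In WT (-0.49) and Per1-/- (-0.41) it passed the adjusted p but not the fold. The WT rise was lost in 5 of the 6 fits without 1 library, and the Per2-/- dip in 3. With the common sum (TPM) the dip was -0.06 in WT, -0.01 in Per1-/- and -0.27 in Per2-/- (limma adjusted p = 0.163), with no call.

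The gelatinase Mmp2 cuts denatured collagen and basement membrane collagen, and it was the metalloproteinase with the highest level by day 4. It lies at GRCm38 chr8:92827291-92853420 on the plus strand (ENSMUSG00000031740). WT libraries held 88.4, 82.7 and 89.0 FPKM on day 0, then 118, 159 and 108 on day 2 and finally 197, 195 and 164 on day 4. Per1-/- libraries held 149, 76.2 and 80.7 FPKM, then 231, 125 and 129.5, then 240.5, 187 and 182. For Per2-/- the values were 68.3, 140.2 and 143, then 112, 159 and 144, then 249, 181 and 214 FPKM. No day 4 library overlapped with the day 0 libraries of its genotype. Mmp2 rose from day 0 to day 4 in WT (log2 fold change 1.09, SE 0.28, limma adjusted p = 0.00182), Per1-/- (1.05, adjusted p = 0.00251) and Per2-/- (0.94, adjusted p = 0.00642). Without replicate 1 of day 0, the Per2-/- change was 0.58 and was not called (limma adjusted p = 0.0673). The rise was spread over both intervals, with 0.55, 0.68 and 0.30 from day 0 to day 2 and 0.55, 0.38 and 0.63 from day 2 to day 4 in the order WT, Per1-/- and Per2-/-, and the only one of these 6 steps that was called was the first in Per1-/- (limma adjusted p = 0.0414). That step was lost without day 0 replicate 2, day 0 replicate 3 or day 2 replicate 1.

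Mmp14, the membrane-anchored activator of MMP2, moved the other way between days 0 and 2. The gene is at GRCm38 chr14:54431612-54445364 on the plus strand (ENSMUSG00000000957). On day 0 it was at 165, 185 and 171 FPKM in WT, 192, 142 and 152 in Per1-/-, and 163, 193 and 153 in Per2-/-. On day 2 it was at 101, 123 and 83.5 in WT, 100.4, 101 and 97.7 in Per1-/-, and 100.5, 85.7 and 93.8 in Per2-/-. Every library of day 2 was below every library of day 0. The log2 fold change was -0.78 in WT (SE 0.17, limma adjusted p = 0.000392), -0.69 in Per1-/- (adjusted p = 0.00118) and -0.86 in Per2-/- (adjusted p = 0.000164). On day 4 the levels were 122, 133 and 94.5 FPKM in WT, 93.9, 123 and 111 in Per1-/-, and 146, 92.2 and 128 in Per2-/- and were still below the day 0 libraries of the same genotype without overlap. The change from day 0 to day 4 was -0.59 in WT (limma adjusted p = 0.00398), which was called, and -0.57 and -0.49 in Per1-/- and Per2-/-, which did not reach the fold. The WT call was lost without day 0 replicate 2 (-0.54) or day 4 replicate 3 (-0.44). It was also lost with size factors computed again (-0.55) and with the macrophage marker mean as a covariate (-0.34). Fits without 1 library gained the day 4 call in 3 of 6 for Per1-/- and 1 of 6 for Per2-/-. The day 2 call in Per1-/- was lost without day 0 replicate 1 (-0.56) and with that covariate (-0.51). The calls of Mmp14 also depended on scaling. With the common sum, the median log2 fold change of all genes between days 0 and 2 was 0.31 to 0.41 in place of -0.01, the split of calls in WT went from 3101 higher and 2944 lower to 5564 and 1253, and Mmp14 was at -0.34, -0.30 and -0.53, with no call.

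The order of the 2 genes reversed with time, since Mmp14 was above Mmp2 in all 9 libraries of day 0 and Mmp2 above Mmp14 in all 9 libraries of day 4. Most fibroblast markers moved with Mmp2. The mean log2 level of the fibroblast list had a Pearson's r of 0.904 with Mmp2 over the 27 libraries and of 0.727 within groups, and 8 of 12 fibroblast markers rose in WT by day 4 (7 in each of the other genotypes), with Lum at a mean log2 fold change of 5.24 and Dpt at 3.50. The other way, 2 of the 12 fell in each genotype, namely Thy1 (-2.27, -2.07 and -2.48 in WT, Per1-/- and Per2-/-) and Twist2 (-1.97, -1.94 and -2.11). Their part in the rise of Mmp2 was not tested. The genes most like Mmp2 in log2 level over the 27 libraries, which share their days, were C4b, C1s1 and C1ra (Pearson's r = 0.947 to 0.961), genes of the complement system. Those most like Mmp14 were Calu, Synj2 and Swap70 (r up to 0.967), and within groups Loxl1, a lysyl oxidase that crosslinks matrix (r = 0.936).

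Mmp11, or stromelysin 3, is unusual in leaving its maker already active and in cutting serpins rather than most matrix proteins. It is at GRCm38 chr10:75923222-75936496 on the minus strand (ENSMUSG00000000901). WT libraries held 12.9, 16.7 and 16.2 FPKM on day 0, then 25.2, 30.0 and 30.7 on day 2 and finally 19.5, 18.6 and 18.5 on day 4. Per1-/- libraries were at 22.1, 11.9 and 13.1, then 25.8, 29.5 and 30.6, then 16.3, 17.0 and 18.9 FPKM. Per2-/- libraries were at 13.0, 19.8 and 15.2, then 23.7, 28.8 and 26.8, then 21.3, 17.4 and 19.8 FPKM. Day 2 was the peak in all genotypes, with no overlap with either other day. The rise from day 0 to day 2 had a log2 fold change of 0.91 in WT (SE 0.18, limma adjusted p = 0.000139), 0.92 in Per1-/- (adjusted p = 0.000135) and 0.74 in Per2-/- (adjusted p = 0.00121), and it was called in every fit without 1 library. It was no longer called in Per1-/- when the 3 day 0 libraries described below, whose cell markers stood apart, were left out (0.37, limma adjusted p = 0.130), which leaves 1 Per1-/- library on day 0, the one with the highest Mmp11 of its group, assumed to vary like the other groups. The fall that followed was called only in Per1-/- (-0.71, limma adjusted p = 0.0258), at -0.60 in WT (adjusted p = 0.0534) and -0.44 in Per2-/- (adjusted p = 0.134). Differences between genotypes in this step were not tested. By day 4 the log2 fold change from day 0 was 0.20 to 0.32 and was not called. It was called with the common sum in WT (0.71, limma adjusted p = 0.00236), and with the macrophage marker mean as a covariate in WT (0.72, adjusted p = 0.00251) and Per1-/- (0.70, adjusted p = 0.0069).

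Mmp3, Mmp12 and Mmp13 lie beside one another on chromosome 9, in the cluster that holds many secreted metalloproteinases. Mmp13 is at GRCm38 chr9:7272514-7283331 (ENSMUSG00000050578), Mmp12 at chr9:7344381-7369499 (ENSMUSG00000049723) and Mmp3 at chr9:7445822-7455975 (ENSMUSG00000043613), all on the plus strand. Promoter sequences were taken from the RefSeq table for GRCm38.p6, as windows of 250 bases before to 50 after an annotated start. They were found for 8 of the 10 members, and Mmp2 and Mmp9 were not searched. The windows found were searched for the AP-1 element TGANTCA, whose reverse complement is the same pattern. They were also searched for the TATA element TATAAA on the strand of the gene. The 2 motifs did not overlap in the windows shown. Of 32851 windows of the same length over all genes, 7.81% held TGANTCA and 8.32% held TATAAA. The last 150 bases before the start are shown for the 3 genes of the cluster because they were the only searched members with a match. Timp1 is shown because it had the steepest fall. Both motifs are in capitals.
Mmp3, chr9:7445672-7445821, plus strand: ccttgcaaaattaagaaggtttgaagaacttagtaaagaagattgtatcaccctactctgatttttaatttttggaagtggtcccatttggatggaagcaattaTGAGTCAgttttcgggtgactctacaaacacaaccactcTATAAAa
Mmp13, chr9:7272364-7272513, plus strand: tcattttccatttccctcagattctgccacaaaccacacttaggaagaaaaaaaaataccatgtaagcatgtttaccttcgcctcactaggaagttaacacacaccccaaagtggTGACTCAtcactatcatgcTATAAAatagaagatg
Mmp12, second annotated start, chr9:7347224-7347373, plus strand: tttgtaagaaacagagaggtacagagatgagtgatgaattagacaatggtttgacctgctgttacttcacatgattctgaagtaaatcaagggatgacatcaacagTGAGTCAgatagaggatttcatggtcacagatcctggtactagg
Timp1, chrX:20870016-20870165, plus strand: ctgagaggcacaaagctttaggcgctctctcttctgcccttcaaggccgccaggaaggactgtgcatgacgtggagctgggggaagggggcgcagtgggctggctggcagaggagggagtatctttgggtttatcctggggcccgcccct

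The first base of TGANTCA stood at -46 in Mmp3, -35 in Mmp13 and -44 in Mmp12, counted from the start site at 0. TATAAA began at -7 in Mmp3, at -16 in Mmp13 and, past the stretch shown, at 4 in Mmp12. Neither motif was in the windows of Mmp11, Mmp14, Timp1, Timp2, Timp3 or the first start of Mmp12. A match describes these letters only, and binding was not measured.

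Mmp13, a collagenase of fibroblasts, chondrocytes and bone cells, fell to its lowest level on day 4 in all genotypes. WT libraries held 1.83, 1.03 and 1.75 FPKM on day 0, then 0.592, 1.02 and 0.289 on day 2 and finally 0.220, 0.118 and 0.167 on day 4. In Per1-/- they held 2.42, 4.71 and 1.39, then 0.963, 4.02 and 0.320, then 0.491, 0.160 and 0.214 FPKM. Per2-/- values were 1.32, 4.64 and 2.24, then 0.775, 0.557 and 0.802, then 0.352, 0.196 and 0.967 FPKM. Day 4 did not overlap with day 0 in any genotype. The log2 fold change from day 0 to day 4 was -2.59 in WT (SE 0.65, limma adjusted p = 0.00166), -2.85 in Per1-/- (adjusted p = 0.000720) and -2.26 in Per2-/- (adjusted p = 0.00516), and all 3 calls held in every fit without 1 library. On the way, day 2 against day 0 was called in Per2-/- only (-1.64, limma adjusted p = 0.0376), and this call was lost in 5 of 6 fits without 1 library. With the macrophage marker mean as a covariate the day 4 change was -1.71 in WT (limma adjusted p = 0.0795) and -1.79 in Per1-/- (adjusted p = 0.0969), neither of which was called.

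Mmp3, stromelysin 1, has a broad range of substrates and activates other proenzymes. Its levels in WT were 12.5, 8.75 and 15.2 FPKM on day 0, then 4.63, 5.17 and 4.66 on day 2 and finally 7.70, 5.76 and 3.89 on day 4. Per1-/- libraries held 4.99, 17.9 and 7.94, then 4.79, 6.85 and 6.14, then 7.58, 2.24 and 4.02 FPKM. In Per2-/- they held 8.07, 18.4 and 26.7, then 8.86, 6.18 and 8.50, then 12.9, 5.11 and 23.9 FPKM. Spread between replicates was wide outside WT, and only in WT did day 0 and day 2 not overlap. The WT fall from day 0 to day 2 was called (log2 fold change -1.28, SE 0.52, limma adjusted p = 0.0372) but was lost in 5 of 6 fits without 1 library. No other step of Mmp3 was called, with -1.08, -1.10 and -0.44 from day 0 to day 4.

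Mmp12, the elastase of macrophages, was the lowest member on day 0 and day 2 and was not called in any step by the fit without a replicate block. Its levels in WT were 0.487, 0.207 and 0.572 FPKM on day 0, then 0.357, 0.280 and 0.448 on day 2 and finally 0.436, 0.217 and 0.523 on day 4. Per1-/- libraries held 0.536, 0.610 and 1.99, then 0.255, 0.305 and 0.778, then 0.228, 0.669 and 1.17 FPKM. Per2-/- libraries held 0.800, 0.271 and 0.722, then 0.530, 0.121 and 0.240, then 0.180, 0.105 and 0.584 FPKM. All days overlapped in all genotypes, but each replicate number of Per1-/- and of Per2-/- was lower on day 2 than on day 0. With a term for the replicate number within a genotype, Mmp12 was called lower from day 0 to day 2 in both. The changes were -0.97 in Per1-/- (limma adjusted p = 0.0234) and -0.85 in Per2-/- (adjusted p = 0.0464). The same fit called it lower in Per2-/- from day 0 to day 4 (-0.93, limma adjusted p = 0.0277). Over the same days 17 of 22 macrophage markers rose in WT, 20 in Per1-/- and 11 in Per2-/-, with none lower, among them Aif1 (mean log2 fold change 3.60), Mrc1 (2.63) and Spi1 (2.45). Within groups, the genes most like Mmp12 were Abcg1, Tsc22d2 and Apoe (r = 0.824 to 0.837), and r with the macrophage marker mean was 0.643. With that mean as a covariate, Mmp12 was called lower from day 0 to day 4 in Per1-/- (-2.20, limma adjusted p = 0.00996) and Per2-/- (-1.80).

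Mmp9, the second gelatinase, is made by macrophages, neutrophils and osteoclasts and, on stimulation, by fibroblasts. It rose by day 4 in all genotypes and was the least even of the called genes. The gene is at GRCm38 chr2:164940780-164955850 on the plus strand (ENSMUSG00000017737). WT libraries held 1.04, 0.273 and 0.465 FPKM on day 0, then 1.04, 4.71 and 2.01 on day 2 and finally 19.6, 44.2 and 2.25 on day 4. In Per1-/- they held 0.131, 2.24 and 0.478, then 1.95, 2.82 and 2.10, then 10.7, 4.14 and 1.86 FPKM. In Per2-/- they held 0.401, 0.150 and 1.99, then 0.671, 0.609 and 1.13, then 35.0, 8.52 and 12.8 FPKM. Day 4 lay wholly above day 0 in WT and Per2-/- and overlapped with it in Per1-/-, and the day 4 libraries spanned from 1.86 to 44.2 FPKM.

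From day 0 to day 4, the log2 fold change of Mmp9 was 4.35 in WT (SE 0.97, limma adjusted p = 0.000564), 2.72 in Per1-/- (adjusted p = 0.0193) and 4.62 in Per2-/- (adjusted p = 0.000348). WT and Per2-/- calls held in every fit without 1 library. The Per1-/- call was lost without replicate 1 of day 0 (1.94, limma adjusted p = 0.111) or replicate 1 of day 4 (2.09, adjusted p = 0.101), and with voom on fragments (adjusted p = 0.162). Per2-/- was the only genotype called from day 2 to day 4 (4.17, limma adjusted p = 0.0156), against 2.49 in WT (adjusted p = 0.149). The difference between the genotypes in this step was not tested, and the call was lost without day 2 replicate 2, day 4 replicate 1 or day 4 replicate 3.

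On day 4, Mmp9 varied from library to library with several osteoclast genes. Acp5, the phosphatase that marks osteoclasts, was at 5.41, 7.26 and 0.746 FPKM in WT, 3.73, 1.63 and 0.930 in Per1-/-, and 7.27, 3.24 and 2.62 in Per2-/-, so that the 3 libraries with the highest Mmp9 also held the most Acp5. On day 0 it was between 0.967 and 1.77 FPKM and on day 2 between 0.456 and 0.759. Over the 9 day 4 libraries, Pearson's r between the log2 levels was 0.973 for Acp5, 0.947 for Ctsk, a collagen-cutting protease on the osteoclast list, 0.935 for Ocstamp and 0.850 for Dcstamp, a pair of genes for fusion proteins of osteoclasts. Within genotypes r was 0.976, 0.938, 0.974 and 0.924, and without the 2 libraries farthest from the median it was 0.948, 0.890, 0.937 and 0.690. Spearman's rho over the 9 libraries was 0.917, 0.917, 0.933 and 0.867. For Csf1r, the receptor for M-CSF, r was -0.535 over the 9 libraries and -0.158 within genotypes, and for Adgre1, which encodes the macrophage marker F4/80, it was -0.552 and -0.208. These are 2 of the 22 macrophage markers, and r over the day 4 libraries is not given for the others. Over all 27 libraries, r of Mmp9 with the macrophage marker mean was 0.595, and within groups it was 0.208. With the means of the osteoclast, neuron and fibroblast markers it was 0.690, 0.769 and 0.645 over the 27 libraries. Within groups these were 0.692, 0.014 and -0.189. Csf1r on day 4 was highest in Per1-/- (54.7 to 79.1 FPKM), and Mmp9 was not called between genotypes on that day. These 9 values share the culture day and 3 genotypes, and the osteoclast genes were compared after earlier results were known.

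Other osteoclast genes gave a mixed picture. Only 4 of the 8 markers, Acp5, Ctsk, Atp6v0d2 and Nfatc1, passed the filter on low values. Over the 9 day 4 libraries r with Mmp9 was 0.883 for Atp6v0d2, 0.736 for Calcr, 0.632 for Nfatc1 and 0.142 for Oscar. On day 4 Ocstamp was at 0.037 to 0.958 FPKM, Dcstamp at 0.099 to 0.808 and Calcr at most at 0.034. The summed list was at 28.0 to 56.6 FPKM on day 0, then 22.4 to 40.8 by day 2 and 41.5 to 79.7 by day 4. Ctsk made up most of it in all libraries, at 23.0 to 51.6 FPKM on day 0, 18.9 to 36.5 on day 2 and 35.3 to 61.1 on day 4. Ctsk was thus high already on day 0, when Acp5 was at most 1.77 FPKM, and which cells held it was not tested. From day 0 to day 4, 1 of the 4 was called higher in WT and Per1-/- and 2 in Per2-/-, with Atp6v0d2 at a mean log2 fold change of 1.97. With the osteoclast marker mean as a covariate, Mmp9 from day 0 to day 4 was at 2.11 in WT (limma adjusted p = 0.0507) and 1.48 in Per1-/- (adjusted p = 0.107), while the Per2-/- call was kept at 2.78, as under every other alternative run. With the same covariate Mmp9 was called higher from day 0 to day 2 in all 3 genotypes, at 3.16 in WT (limma adjusted p = 0.00192), 2.86 in Per1-/- (adjusted p = 0.00341) and 2.40 in Per2-/- (adjusted p = 0.0258). The mean log2 level used as covariate was 1.68 on day 0, 0.98 on day 2 and 2.55 on day 4. Within groups its r with Mmp9 was 0.692. Such a covariate raises the day 2 change of Mmp9 and lowers that of day 4. It was chosen after the data were seen, so these shifts are no separate evidence. A neutrophil list had 0 of 10 markers past the filter, and its sum was at most 2.49 FPKM in any library. Which cells made Mmp9 was not tested.

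**Figure D3:**
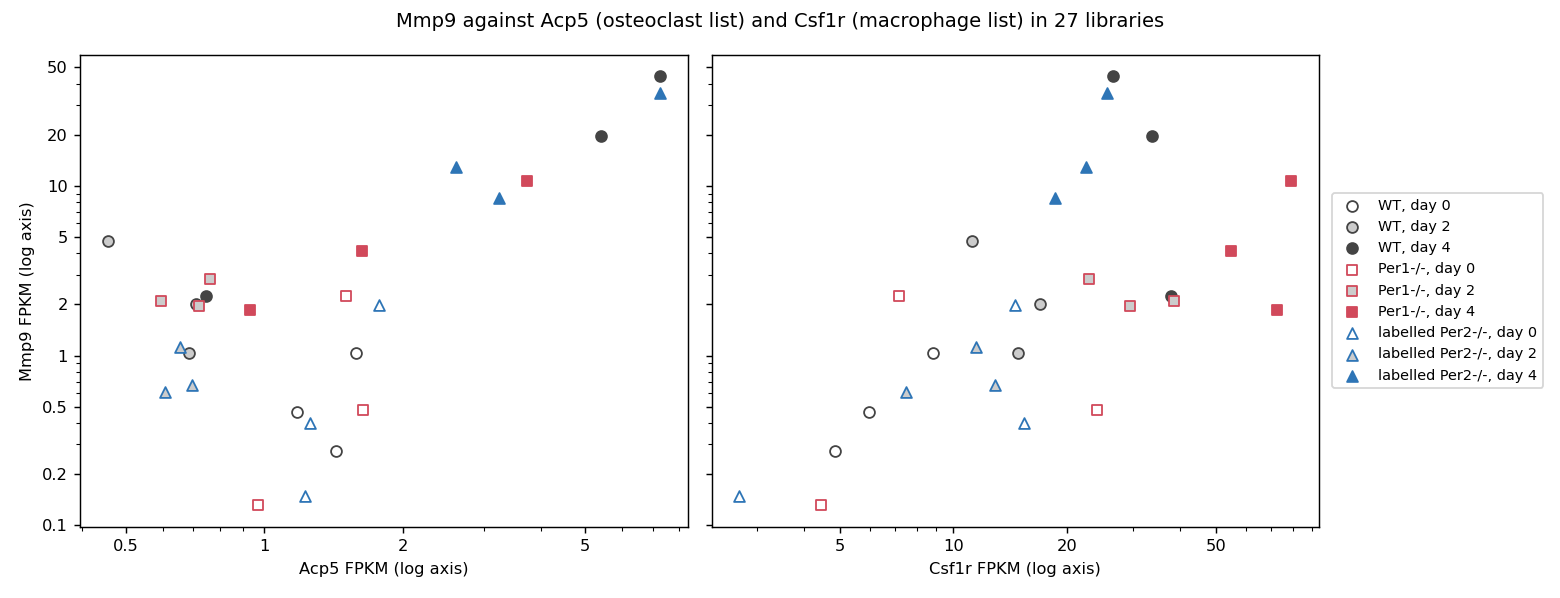
Mmp9 in FPKM against Acp5 (left) and Csf1r (right) in the 27 libraries, both axes logarithmic, with marker shape for genotype and fill for day. On day 4 Mmp9 and Acp5 were high in the same libraries (r = 0.973, n = 9), whereas the r with Csf1r was -0.535, or -0.158 within genotypes.

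On day 0, 3 libraries stood apart in their cell markers. The chondrocyte gene Col2a1 was at 116 FPKM in Per2-/- replicate 3 and 33.5 in Per1-/- replicate 2, and at 2.24 to 7.13 in the other libraries of that day. Those 2 libraries had the highest Mmp3 and Mmp9 of their groups, with Mmp3 at 26.7 and 17.9 FPKM and Mmp9 at 1.99 and 2.24 FPKM. Per1-/- replicate 3 had the highest macrophage marker sum of the day, at 1204 FPKM, and the highest Mmp12, at 1.99 FPKM. Within groups, r with the mean of the chondrocyte and osteoblast list was 0.493 for Mmp3 and 0.506 for Mmp9, and that list had 0, 1 and 0 of 6 tested genes called lower by day 4 in WT, Per1-/- and Per2-/-, with none higher. Without these 2 libraries and Per1-/- replicate 3 of day 0, Mmp2 from day 0 to day 4 in Per1-/- was at 0.43 (limma adjusted p = 0.331). This value rests on 1 Per1-/- library of day 0, at 149 FPKM of Mmp2, which is assumed to vary like the other groups. An endothelial list, with 3 of 8 genes tested, had 1 gene higher (Tek, mean log2 fold change 3.61) and 1 lower (Kdr, -1.58) in each genotype.

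The balance of the summed transcripts moved towards the enzymes. The 3 TIMPs summed to a mean of 895 FPKM on day 0 (673 to 1172 over 9 libraries) and 405 on day 2 (355 to 535). The 7 MMPs summed to 303 (255 to 376) and 279 (229 to 365). On day 4 the TIMP sum was 493 (419.9 to 610.3) and the MMP sum 360.1 (284 to 465). The ratio of the MMP sum to the TIMP sum was 0.348 on day 0 (0.234 to 0.477), 0.688 on day 2 (0.628 to 0.759) and 0.729 on day 4 (0.676 to 0.790). All day 0 libraries were below all later ones. By genotype the ratio was 0.330 ± 0.076 (SD, n = 3), 0.670 ± 0.058 and 0.713 ± 0.040 on the 3 days in WT, 0.360 ± 0.048, 0.698 ± 0.047 and 0.747 ± 0.037 in Per1-/-, and 0.355 ± 0.122, 0.697 ± 0.059 and 0.727 ± 0.031 in Per2-/-. These sums are a description, with no test. A ratio within a library does not depend on how the library was scaled.

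The make-up of the TIMP sum changed as well. The share of Timp1 in it went from 36.2% on day 0 to 11.6% on day 2 and 6.64% on day 4, and that of Timp2 went from 57.0% to 78.0% and 79.9%. Mmp2 and Mmp14 together made up 89.1%, 86.4% and 88.4% of the MMP sum, so the other 5 enzymes carried little weight in it. The sums count transcripts and give neither protein nor activity.

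**Figure D4:**
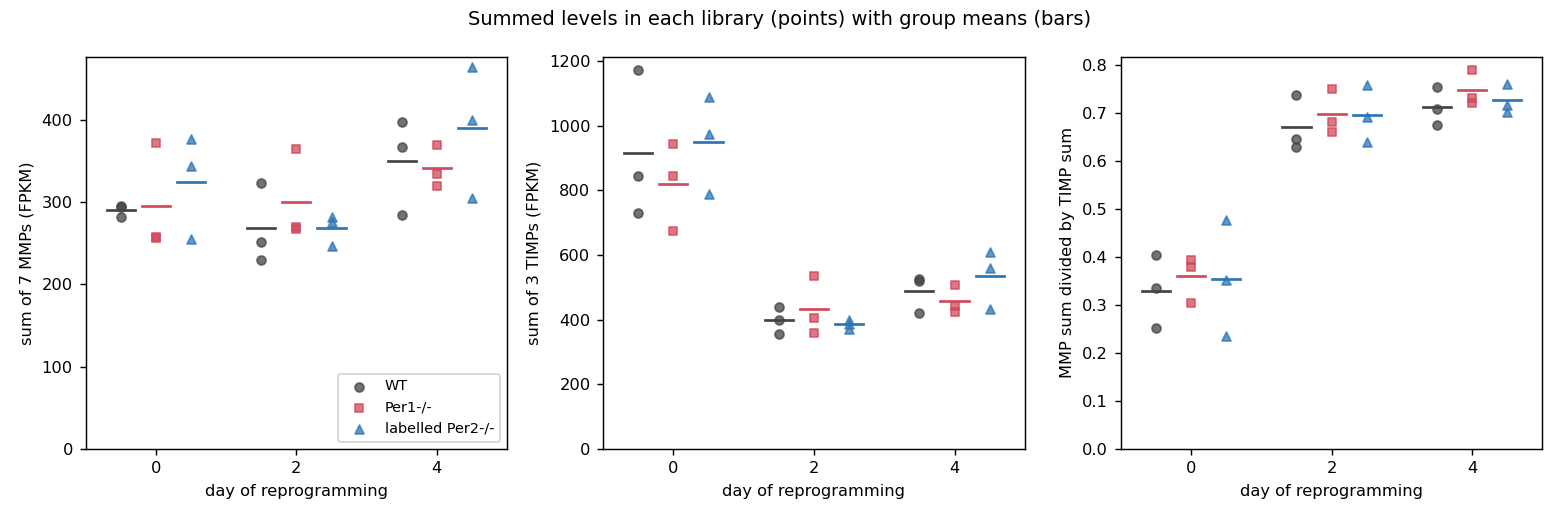
Summed FPKM of the 7 MMPs, of the 3 TIMPs, and the ratio of both sums, by day, from 0. Points are libraries and bars group means. The ratio was at most 0.477 in the 9 day 0 libraries and at least 0.628 in the later ones.

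None of the 10 genes was called between genotypes on any day. The counts were 0 of 10 for Per1-/- against WT, Per1-/- against Per2-/- and Per2-/- against WT on days 0, 2 and 4, and 0 under every alternative tried, voom included. Few genes were called at all: 0.0134%, 0.0067% and 0.0268% of those tested on days 0, 2 and 4 for Per1-/- against WT, 0.0201%, 0.0737% and 0.556% for Per1-/- against Per2-/-, and 0.0067%, 0.0268% and 0.0067% for Per2-/- against WT. The study tested counts at the same cutoffs. On each day it reported many more genes that differed in Per1-/- from both other genotypes. A count of 0 members here therefore does not show equal levels. At an unadjusted p under 0.05 there was 1 member on day 2 and 1 on day 4, both for Per1-/- against Per2-/-, where 8.22% and 13.2% of all genes were past that limit. Timp3 was higher in Per1-/- than in Per2-/- on day 2 by 0.45 on the log2 scale (95% interval 0.11 to 0.79, limma adjusted p = 0.393). Mmp3 was lower in Per1-/- than in Per2-/- on day 4, at -1.48 (-2.56 to -0.41, limma adjusted p = 0.197).

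Intervals show how large a difference could have been missed. For Timp1, Per1-/- against WT was between -0.48 and 0.30 on day 0, between -0.34 and 0.44 on day 2 and between -0.54 and 0.24 on day 4 (95% intervals, log2 scale). Mmp14 was between -0.45 and 0.23, between -0.37 and 0.32, and between -0.43 and 0.26. For Mmp9 the day 4 interval ran from -3.53 to 0.51 for Per1-/- against WT, and from -3.84 to 0.20 for Per1-/- against Per2-/-. With 3 libraries a group, a several-fold difference was thus not excluded for this gene. The macrophage marker sum on day 4 was 660 to 1169 FPKM in WT, 1331 to 2332 in Per1-/- and 503 to 876 in Per2-/-. Per1-/- libraries lay above the others in this sum, but 0 of 22 macrophage markers were called on day 4 in either comparison of Per1-/- (limma, lowest adjusted p = 0.622 against WT and 0.0989 against Per2-/-). Their median log2 fold change was 0.96 and 1.41. The fit shares 1 spread per gene over all groups. The macrophage marker mean had an SD of 0.53, 1.23 and 1.17 on day 0 in WT, Per1-/- and Per2-/-, against 0.27, 0.33 and 0.23 on day 4. The study, which tested counts, reported macrophage genes as higher in Per1-/- on days 2 and 4.

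Groups did not overlap in 4 cases. On day 2, Timp3 in Per1-/- lay above WT and above Per2-/-, Mmp9 in Per1-/- lay above Per2-/-, and Mmp3 in Per2-/- lay above WT. Non-overlapping groups were seen for 10.3%, 16.1% and 9.98% of all genes in Per1-/- against WT, Per1-/- against Per2-/- and Per2-/- against WT on that day. For the change from day 0 to day 2 or day 4 in Per1-/- or Per2-/- against WT, an interaction term in limma called 0 of 10 members and 0% of all genes, and 0 members had an unadjusted p under 0.05. The largest interaction was that of Mmp9 from day 0 to day 4 in Per1-/- against WT, at -1.63 (SE 1.37, 95% interval -4.49 to 1.23, limma adjusted p = 1.00).

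**Figure D5:**
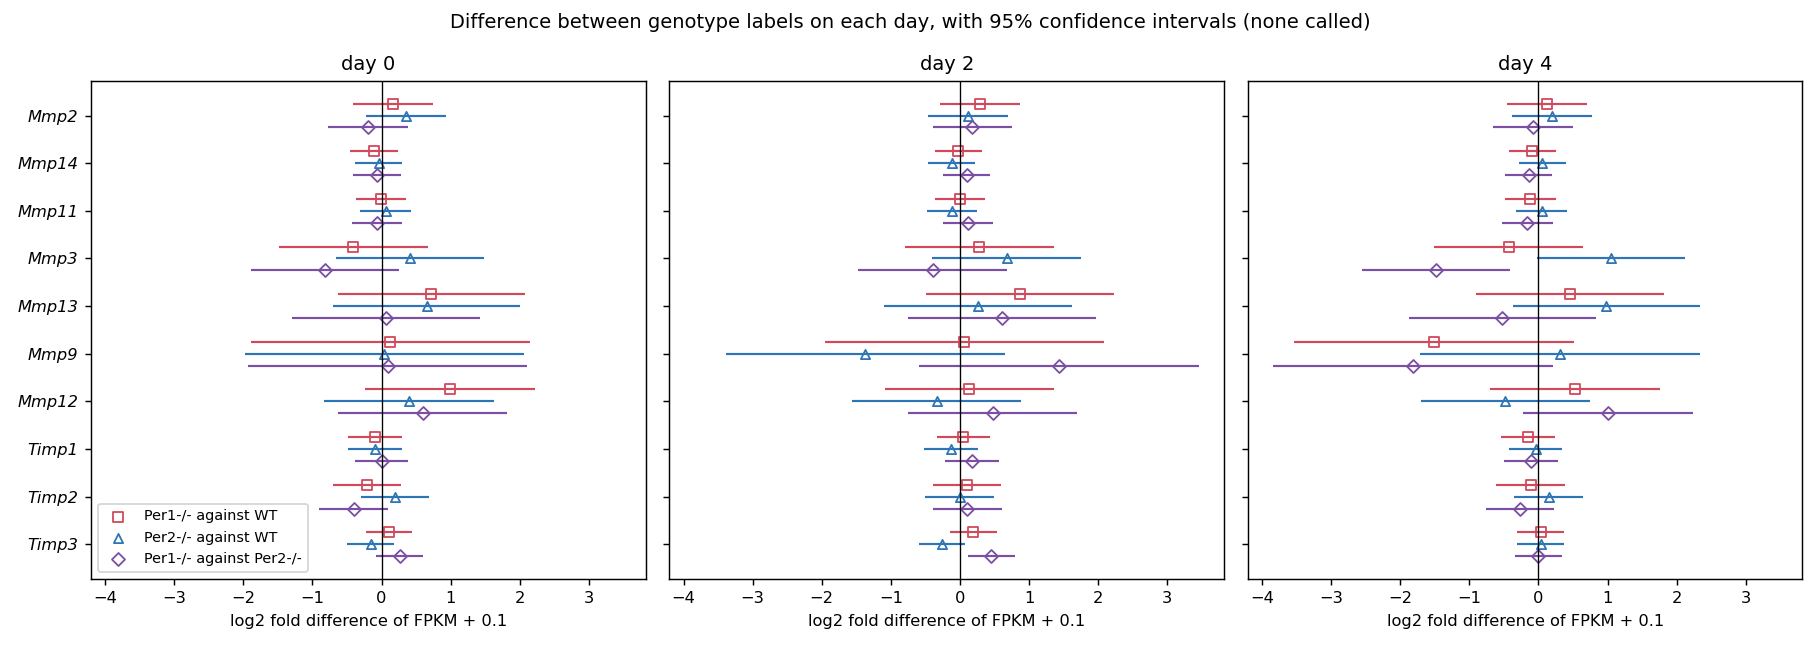
Log2 fold changes of the 10 genes between genotypes on days 0, 2 and 4, with 95% confidence intervals. All points are open because none was called, and the intervals of Mmp9, Mmp13, Mmp12 and Mmp3 are the widest.

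Other genes of the pathway also changed with time, and each list is given from day 0 to day 4 in the order WT, Per1-/- and Per2-/-. Of 17 other MMP genes and Timp4, 8 were tested, with 4, 5 and 4 higher and 1 lower in each. Mmp24, a membrane-type enzyme of neurons, went from 0 to 0.109 FPKM on day 0 to 2.18 to 4.32 on day 4. Mmp10, or stromelysin 2, went the other way, from 1.32 to 6.89 FPKM to between 0 and 0.218. Mmp15 (mean log2 fold change over the genotypes 2.58), Mmp28 (1.30) and Mmp16 (1.19) rose.

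Of 20 activators, other inhibitors and cofactors of MMPs, 19 were tested, with 7, 6 and 6 higher and 9, 9 and 7 lower. The plasminogen activator system, which starts MMP activation outside the cell, was among those that fell. The receptor Plaur had a mean log2 fold change of -3.96 and the activator Plau of -2.58. Cd44, which docks MMP9 at the cell surface, was at -3.42 and the Kunitz inhibitor Tfpi2 at -2.98, whereas Serpine2, or protease nexin 1, rose by 1.70.

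Among inducers of MMP genes, more fell than rose. Of 24 AP-1 and cytokine genes, 20 were tested, with 1 higher and 10, 9 and 10 lower. Fosl1, which encodes the AP-1 subunit FRA-1, was at -3.95, the ETS factor Etv4 at -3.13 and the cytokine Lif at -2.72. Matrix substrates were split, with 8, 9 and 8 of 20 higher and 6 lower in each genotype. Elastin (Eln, 4.67) and decorin (Dcn, 3.58) rose and tenascin C (Tnc, -3.61) fell. Of the related ADAM and ADAMTS proteases, 24 of 27 were tested, with 15, 13 and 13 higher and 4 lower in each, and the highest changes were those of Adamts17 (4.15), Adamts15 (4.07) and Adamts19 (2.58). Neuron markers, 12 of 14 of which rose in each genotype, were led by Elavl3 (5.91), Ina (5.26) and Stmn3 (5.07).

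Similarity in pattern was measured as Pearson's r of log2 levels over the 27 libraries, which share the 3 days. Smim3 and Eno1 were among the genes closest to Timp1, and its r with the mean of the neuron markers was -0.928. Mmp9 was closest to Zfp185, Fgfr3 and Cdh6 (r up to 0.880), Mmp13 to Ube2t, Gins4 and Pimreg (up to 0.855), Mmp11 to Zfp516 (0.920), Timp2 to Plpp1 (0.900), Timp3 to Nedd9 (0.841), Mmp3 to Pcolce2 (0.812) and Mmp12 to Ccl6 (0.789). With the group means removed, the closest genes were others: Tspan4 for Timp1 (0.918), C1s1 for Mmp2 (0.909), Adamtsl4 for Timp2 (0.914), Wls for Timp3 (0.818) and Tipin for Mmp9 (0.824).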

How the data were processed

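Bulk RNA was sequenced from 27 libraries. Per the labels and the study's methods, the authors aligned reads with HISAT2 2.0.5, counted them per gene with featureCounts 1.5.0-p3 on GRCm38 (mm10) and deposited FPKM values for 54532 genes. The study's libraries were nondirectional, so strand could not be used in counting. At 1 fragment's worth per gene, 100% of values were whole fragments within 0.01, which gave the depths stated. The number of value columns left out was 0.

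Levels were analysed as log2(FPKM + 0.1) with limma 3.58.1 (R 4.3.3), with 9 group means, no covariate, an empirical Bayes trend and Benjamini-Hochberg adjustment over 14932 genes, namely those averaging 0.5 FPKM or more. Fold changes are on this scale, which understates the change of low genes. Calls needed 0.05 or less in adjusted p and 0.58 or more in log2 fold change. The study tested counts, whereas FPKM values were tested here. Tables and figures used Python 3.11.15, pandas 2.3.3, numpy 2.4.6 and matplotlib 3.10.9. In simulated data for WT from day 0 to day 2, 145 of 200 genes changed by 1 on the log2 scale were recovered among 14816 genes, and 178 of 200 changed by 2 among 14809 genes, with 7 and 5 false calls.

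Members and lists were chosen with earlier results of these data known. All members were named. From each other list, genes called in all genotypes from day 0 to day 4 with the highest changes were named, and the genes nearest each member by Pearson's r were named as likeness. A few genes that these rules pick are not reported here. The osteoclast genes other than Atp6v0d2, and Csf1r, Adgre1, Col2a1, Thy1 and Twist2, were named after their values were seen. Alternatives were another pseudocount, no filter, size factors computed again, a common sum (TPM), voom on recovered fragments, the compared groups alone, a replicate block, no minimum fold, marker means as covariates and the omission of libraries. The osteoclast covariate and the joint omission of 3 day 0 libraries were chosen after seeing the data.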

Additional observations from a re-analysis of the deposited data

How the results depend on the processing

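No member changed direction while called, and all genotype and interaction counts stayed at 0 under all alternatives run. Of the values for single genes in comparisons where the gene was called under some setting, 580 kept their side of the threshold, 49 lost the call and 33 gained one. These totals leave out the fits without 1 library, in which further calls were lost and gained. Counts of members called moved mainly between days 2 and 4, where few genes were called. In WT the count of 1 became 0 with no filter on low values, with TPM and with the osteoclast covariate, and 2 with voom and with only the compared groups. In Per1-/- the count of 2 became 1 with a pseudocount of 0.01 FPKM, no filter, new size factors or voom, and 0 with either the macrophage or the osteoclast covariate. In Per2-/- the count of 2 became 1 with voom and 0 with the osteoclast covariate. Without 1 library these counts were 0 to 2 in WT, 0 to 1 in Per1-/- and 1 to 2 in Per2-/-. From day 0 to day 2 in Per2-/-, TPM reduced the count from 6 to 2. The cause was not tested.

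With TPM, the summed MMP level was 244 in WT on day 0 and 304 in Per2-/- on day 2, and the summed TIMP level was 450.2 in WT and 437 in Per2-/- on day 2, against 290.4, 268, 398 and 385 in FPKM. With TPM the median log2 fold change of all genes from day 0 to day 4 was 0.37, 0.26 and 0.25 in WT, Per1-/- and Per2-/-, against -0.02 to 0.00 without it. It moved calls from 3414 higher and 3120 lower to 5485 and 1511 in WT. From day 0 to day 2 it gave 5317 and 1182 against 3101 and 2811 in Per1-/-, and 4630 and 1266 against 2792 and 2508 in Per2-/-. With no minimum fold, the counts of all genes over days 2 to 4 were 312 and 428 in WT against 242 and 237, and with the osteoclast covariate they were 64 and 16.

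Replicate numbers did not pair the samples by the criterion set, since same-numbered libraries of a day had deviations correlated at -0.256 to 0.192 across genotypes, and those of 1 genotype at -0.017 to 0.294 across days, with 14 of 27 pairs over 0.1. Within a genotype, even so, the own number was the best match among 3 candidates in 48 of 54 cases. Same-numbered libraries of a genotype thus tended to be alike across days, which the design does not state. The main fit has no term for this, so its p-values between days ignore any such pairing. With the replicate block, members called were 5, 1 and 5 in WT for day 2 against 0, day 4 against 2 and day 4 against 0, 5, 2 and 4 in Per1-/-, and 7, 2 and 5 in Per2-/-. The block added Mmp12, called lower in Per1-/- (-0.97, limma adjusted p = 0.0234) and Per2-/- (-0.85, adjusted p = 0.0464) from day 0 to day 2 and in Per2-/- from day 0 to day 4 (-0.93, adjusted p = 0.0277). Over all genes it raised calls between days 2 and 4 from 242 higher and 237 lower to 460 and 369 in WT, from 206 and 158 to 411 and 319 in Per1-/-, and from 346 and 260 to 624 and 427 in Per2-/-.

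Depth limits Mmp9, Mmp12 and Mmp13 most. Mmp9 rested on 9 to 122 fragments a library on day 0, Mmp12 on 16 to 193 and Mmp13 on 7 to 55 on day 4, while Mmp9 had 150 to 3485 on day 4. The genotype comparisons are limited by 3 libraries a group.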
